A study of Mus musculus with 10 samples.

Results

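The cytosolic ribosomal protein genes were followed in mouse lung tumours labelled control or Glut1-KO, the latter after the targeted glucose transporter Glut1. Members were taken by name from the deposited count table, as every row whose symbol is Rpl or Rps followed by a number and at most a, x, l or l1, together with Rplp0, Rplp1, Rplp2 and Rpsa, and rows marked as pseudogenes by a -ps symbol were left out. The rule found 83 rows of the 39017 genes in the table, of which 32 carry names of the small (40S) subunit and 51 names of the large (60S) subunit. A total of 82 of the 83 identifiers belong to protein-coding genes in GENCODE M21, and Rps12l1 is annotated as a processed pseudogene. The row labelled Rpl24 carries the identifier of Zbtb11, a zinc finger gene, whereas the identifier of Rpl24 itself stands under the symbol RPL24, so this row is kept in all counts below but says nothing about Rpl24. The rule also leaves out related genes such as Rps3a1, Fau, Rack1 (under its older symbol Gnb2l1) and Rpl36al, which are given separately.

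The study profiled 10 libraries. Tumours arose in KP mice (K-rasLSL-G12D/WT with p53Fl/Fl) or KPG1 mice, which carry Glut1Fl/Fl in addition, all on a C57BL/6 background, after intratracheal Ad5CC10-Cre, an adenovirus whose promoter is active in CC10-positive airway cells. Tumours were macrodissected 20 weeks and 1 day after initiation, dissociated and depleted of CD45-positive immune cells, and polyadenylated RNA of the remaining fraction was sequenced. The 5 control libraries all came from males labelled heterozygous for the floxed Glut1 allele, while 3 of the 5 libraries labelled Glut1-KO (replicates 1 to 3) came from females and 2 (replicates 4 and 5) from males, so there was no female control. The design text calls the controls Glut1 wild type. Every group carried the K-ras and p53 alleles and received Cre, and the CD45-negative fraction can hold stromal and untransformed epithelial cells beside tumour cells.

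Ribosomes are built from ribosomal RNA and ribosomal proteins, most of them present once in each ribosome, and the genes of the family are expressed together at high levels. The small subunit reads the mRNA, and the large subunit forms the peptide bond and releases the new chain through an exit tunnel. Most mRNAs of ribosomal proteins and of several translation factors begin with a 5′ terminal oligopyrimidine (TOP) tract, a C followed by further pyrimidines, through which nutrient and growth signals acting on mTOR control their translation. A bulk measurement of mRNA does not show translation, and fewer cells of a type cannot be told apart from less RNA per cell.

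Start sequences are shown for a few members because TOP mRNAs are defined by these bases, and 5 of the 6 lines were picked for carrying a C or T run at the start, which most members in the table did not have in the form searched below. Each line gives 30 bases around a RefSeq transcription start (build GRCm38.p6, read 5′ to 3′ on the strand of the gene), from 10 bases before the start base to 19 after it, with the unbroken run of C or T through the start base in capitals.
Rpl35 (protein of the exit tunnel rim, chr2:39005112-39005141, minus strand): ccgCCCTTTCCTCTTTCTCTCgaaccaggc
Rps6 (target of S6 kinase, chr4:86857348-86857377, minus strand): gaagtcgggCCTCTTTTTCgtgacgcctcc
Rps10 (chr17:27635225-27635254, minus strand): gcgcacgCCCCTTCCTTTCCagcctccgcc
Rplp2 (acidic protein of the stalk, chr7:141447641-141447670, plus strand): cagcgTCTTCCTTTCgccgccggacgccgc
Rpl15 (chr14:18270967-18270996, minus strand): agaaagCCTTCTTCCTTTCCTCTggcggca
Rplp0 (base of the stalk, chr5:115559457-115559486, plus strand): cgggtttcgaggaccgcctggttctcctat
Of the 61 members other than the mislabelled row that had a start in the table, 13 (21.3%) had a C at the start base followed by at least 4 bases that are each C or T, against 813 of 27025 genes (3.01%). A run of at least 8 C or T bases within 10 bases before and 10 bases from the start was present at 34.4% of these members and 8.71% of all genes. Both were searched on the gene's own strand only. Rplp0 had neither C nor T at its annotated start base, so no run through that base is marked, although C and T runs stand elsewhere in its window.

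Library totals ran from 35.3 to 49.8 M counts (M, 1e6). Of the 83 members, 80 passed the filter on low counts, and the remaining 3 were Rpl10l, which had 0 counts in all libraries, Rpl39l with 43 counts in all, 41 of them in 1 library, and Rps12l1 with 19 counts. Slc2a1, the gene of Glut1, lay at 60.3, 42.5 and 34.6 CPM (counts scaled by TMM to a library of 1e6, here and throughout) in the female Glut1-KO libraries and at 92.4 and 103 CPM in the male ones, against 73.2 to 118 CPM in the controls, so the libraries labelled Glut1-KO replicates 4 and 5 are not separated from controls by the targeted gene. Sample names in the deposit carry a number that may stand for the mouse. Replicates 4 and 5 of Glut1-KO share 1 such number, as do control replicates 3 and 4 and control replicates 1, 2 and 5, and the p-values below treat libraries as independent.

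As a family, the members took between 1.77% and 3.03% of all counts, and the 2 male Glut1-KO libraries held the highest shares. In the controls (replicates 1 to 5) the share was 2.20%, 2.50%, 1.77%, 2.03% and 2.34%, in the female Glut1-KO libraries (replicates 1 to 3) 2.15%, 1.802% and 2.16%, and in the male ones (replicates 4 and 5) 2.52% and 3.03%. All female values lay inside the control range, and both male values lay above it, replicate 4 by a narrow margin. The mean was 2.167% ± 0.285 (SD, n = 5) in controls and 2.33% ± 0.464 (SD, n = 5) in Glut1-KO, a difference smaller than the spread between libraries. That difference, 0.164 percentage points, was 0.0639 without control replicate 3 and turned to -0.00994 without Glut1-KO replicate 5. The 40S members took 0.732% to 1.22% and the 60S members 1.03% to 1.81% of counts, both lowest in control replicate 3 and highest in Glut1-KO replicate 5. Mitochondrial ribosomal protein genes, which belong to a different ribosome, took 0.205% to 0.249% of counts and the male Glut1-KO libraries lay within the control range.

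**Figure D1:**
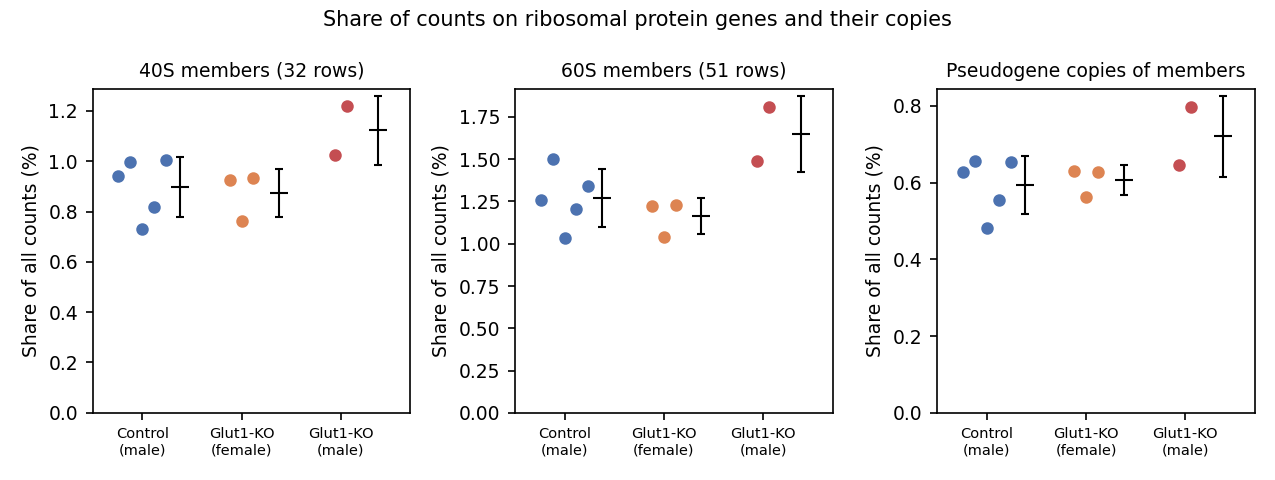
Share of all counts (%, y axis) per library on the 40S members, the 60S members and the pseudogene copies of members, by label and sex. Points are libraries, and the bar beside them is the mean ± SD. Both male Glut1-KO libraries stand above the female ones, with 60S shares of 1.49% and 1.81%, the lower of which is just under the highest control.

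Grouped by the number in the sample names, the share was 2.20% to 2.50% in the 3 controls that share one number and 1.77% to 2.03% in the 2 that share the other. The control sets did not overlap, although both carry the same label. Over all genes tested, the consensus correlation of libraries sharing a number was 0.07, and the part of the number in this split was not tested.

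Levels differed widely among members when counts were divided by the length of the annotated exons of each gene and scaled to a common total (TPM). Rps15, a protein near the decoding site, was highest at a mean of 2349 TPM (range 1686 to 3415), followed by Rplp0 at 2289 TPM (1416 to 4028) and Rpl32 at 2222 TPM (1406 to 3068). The ranges of these 3 overlapped, so their order was not separated by the spread between libraries. Rps15 lay at 500.1, 568, 360.4, 448 and 406 CPM in controls and at 438, 296, 427, 501 and 686 CPM in Glut1-KO, and Rpl32 at 648, 755, 445, 583 and 640.2 CPM and at 578, 552, 650.4, 893 and 941 CPM. For both, Glut1-KO 5 was highest. Rps15 in Glut1-KO 2 lay below every control, and Rpl32 in Glut1-KO 4 above every control. The lowest members with any count were Rps12l1 (0.363 TPM), Rpl39l (0.39 TPM) and Rpl3l (0.628 TPM), of which Rpl3l and Rpl39l encode variants that replace their parent proteins mainly in muscle and in testis. The next lowest rows were the mislabelled Rpl24 row (17.8 TPM), Rps13 (23.1 TPM) and Rpl27 (34.0 TPM). Exon length here is the union over all annotated transcripts and ran from 383 to 7440 bases, so genes with long rarely used exons are placed low. Counted copies held 86.9% of the summed CPM of Rps13 and its copies and 86.2% of that of Rpl27, so their rank may also depend on how shared reads were assigned, which was not tested.

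Members varied together across libraries. The correlation of a member's log2 CPM with the mean of the other members over the 10 libraries had a median of 0.68, was over 0.5 for 61 of 80 and was negative for 5. Members within a library share its depth and scaling factor, and the values are descriptive. Rps3, a protein at the mRNA entry site, followed the family most closely (r = 0.96), ahead of Rpl38 (0.95) and Rpl14 (0.94). The 5 negative rows were the mislabelled Rpl24 row (-0.75), Rps27a (-0.17), Rpl11 (-0.11), Rpl3l (-0.10) and Rpl23a (-0.07). Within groups the SD of log2 CPM had a median of 0.32 for members, 0.35 for all genes tested and 0.25 for the 5469 genes at or above the 10th percentile of the members' levels. It was smallest for Rpl22 (0.16) and largest for Rpl3l (1.51), which was barely detected (0.0253, 0.668, 0.0988, 0.229 and 0.699 CPM in controls, 0.243, 0.475, 0.269, 0.123 and 0.249 CPM in Glut1-KO). Rps27a, made as a fusion with ubiquitin, came next (0.87) and was named after its values were seen. It lay at 158, 31.5, 39.5, 112 and 95.8 CPM in controls and at 58.1, 94.1, 81.5, 114 and 32.5 CPM in Glut1-KO, so that the control range enclosed all Glut1-KO libraries.

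**Figure D2:**
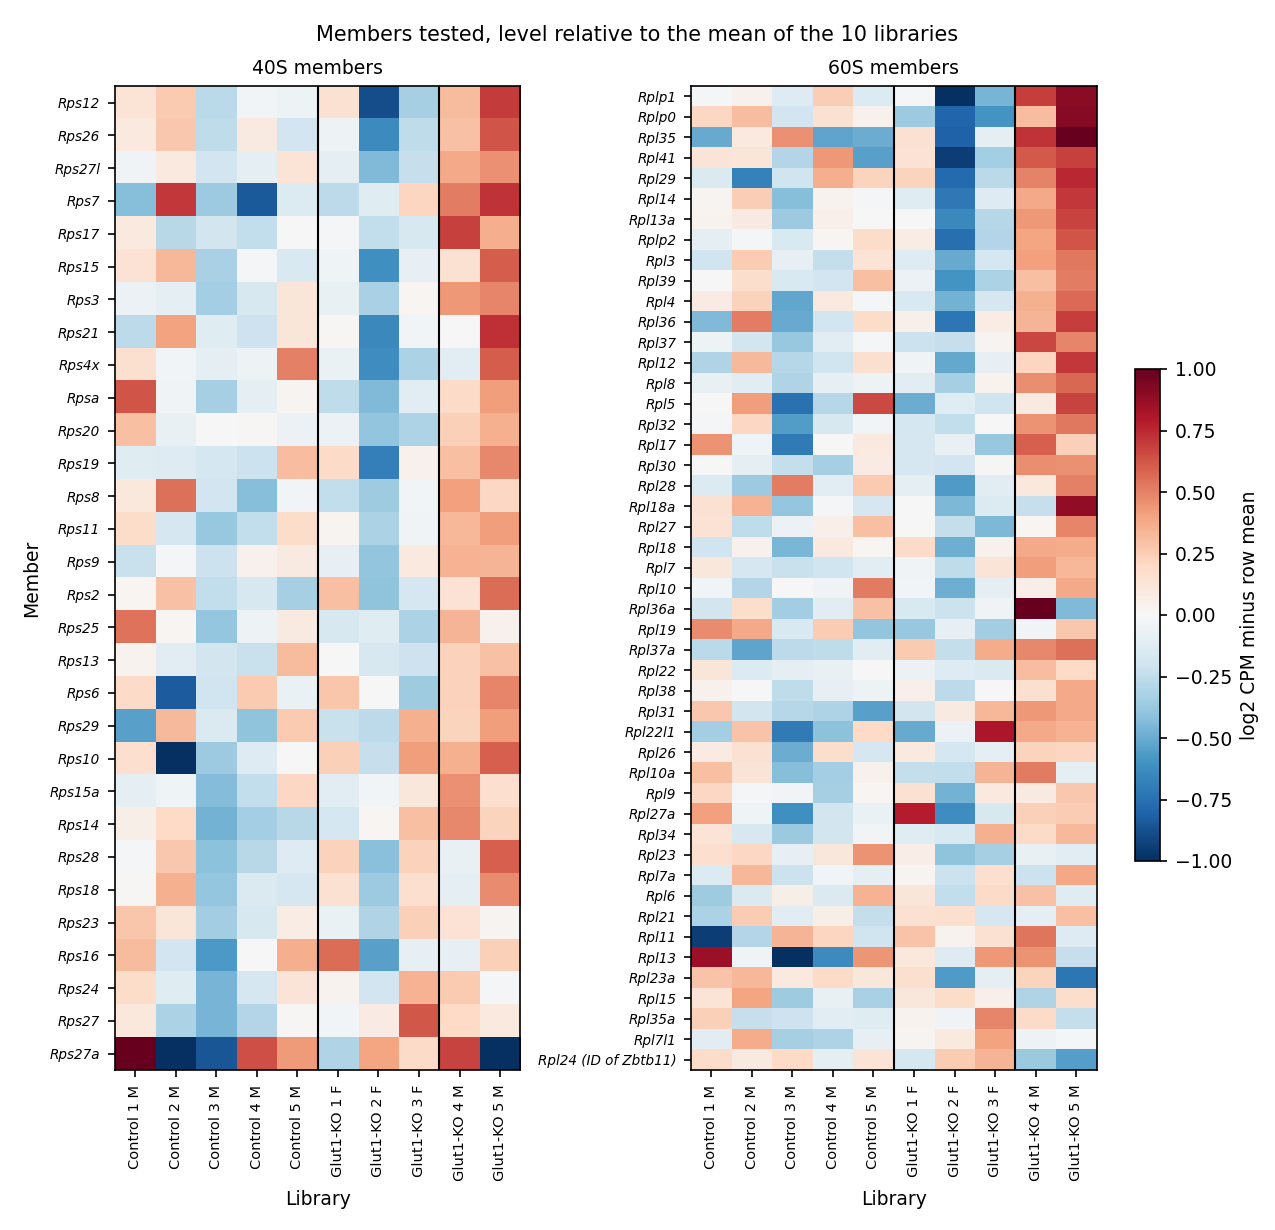
Level of 78 of the 80 tested members (rows; Rpl3l, which was barely detected, and 1 further member are not shown) in the 10 libraries (columns), as log2 CPM minus the row mean, with blue below and red above it. Rows are ordered by the difference between male and female Glut1-KO, so this order is not a finding. The columns of Glut1-KO 4 and 5 are mostly red and those of Glut1-KO 2 and control 3 mostly blue (median of -0.31 and -0.28), while rows such as Rps27a and Rpl13 swing on their own.

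The comparison of all Glut1-KO with all control libraries asked whether tumours labelled Glut1-KO differed from controls in the mRNA of the ribosome. No member passed the threshold. With limma, 0 of 80 members and 0 of 15922 genes had an adjusted p under 0.05 (0.0% of all genes), and the lowest adjusted p among members was 0.406. At an unadjusted p under 0.05, 4 members were higher (background 3.66% of all genes) and 2 lower (4.02%), or 6 in either direction (7.68%), shares close to the background. Among the alternatives, DESeq2 called 1 member, Rpl37a, as higher, where it called 1.32% of all genes in either direction and 0.678% as higher, and edgeR's quasi-likelihood test called 0. No member had all Glut1-KO libraries on one side of all controls, against 1.85% of all genes.

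The 4 members with the smallest p among those with a higher mean were Rpl37a, Rpl31, Rps27 and Rps10. Rpl37a, a zinc-binding protein of the large subunit (chromosome 1, 72711290 to 72713813), lay at 145, 121, 146, 146 and 163 CPM in controls 1 to 5 and at 209, 148, 226, 244 and 256 CPM in Glut1-KO 1 to 5. Every Glut1-KO library but replicate 2 was above every control. Its log2 fold change was 0.57 (SE 0.15, limma adjusted p = 0.406). With DESeq2 the estimate was 0.59, adjusted p = 0.0285.

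Rpl31, which lines the rim of the exit tunnel, lay at 222, 162, 151, 149 and 126 CPM in controls and at 162, 196, 232, 249 and 239.7 CPM in Glut1-KO, so that only control 1 reached into the Glut1-KO range, although control 2 lay just under Glut1-KO 1. Its log2 fold change was 0.42 (SE 0.17, limma adjusted p = 0.610). Rps27, a zinc finger protein of the small subunit, lay at 34.9, 26.0, 23.5, 26.4 and 32.6 CPM in controls and at 31.8, 34.3, 49.9, 37.2 and 34.7 CPM in Glut1-KO, and the groups overlapped through controls 1 and 5. Rps10 lay at 289.8, 124, 200.3, 236 and 259 CPM in controls and at 305, 221, 345, 330.5 and 391 CPM in Glut1-KO, with Glut1-KO 2 inside the control range and the other Glut1-KO libraries above it.

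The 4 smallest p in the other direction belonged to Rpl23, Rpl23a, Rpl19 and the mislabelled Rpl24 row. Rpl23, which can bind Mdm2 when it is free of the ribosome, lay at 241, 248, 203, 233 and 293 CPM in controls and at 226, 163, 171, 205 and 199 CPM in Glut1-KO. Control 3 and Glut1-KO 1 and 4 overlapped. Its log2 fold change was -0.34 (SE 0.13, limma adjusted p = 0.591). Rpl23a, the docking site for factors at the exit tunnel, lay at 86.4, 89.4, 75.9, 81.0 and 76.7 CPM in controls and at 79.3, 48.1, 66.3, 82.8 and 43.2 CPM in Glut1-KO, with a log2 fold change of -0.41 (SE 0.18, limma adjusted p = 0.644). Counted pseudogene copies held 71.2% of the summed CPM of Rpl23a and its copies. Summed with them, the log2 fold change of Rpl23a was -0.29 (SE 0.17, limma unadjusted p = 0.121). Rpl19 had a log2 fold change of -0.22 (SE 0.19) and the Zbtb11 row one of -0.20 (SE 0.17), both well inside the spread between libraries.

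**Figure D3:**
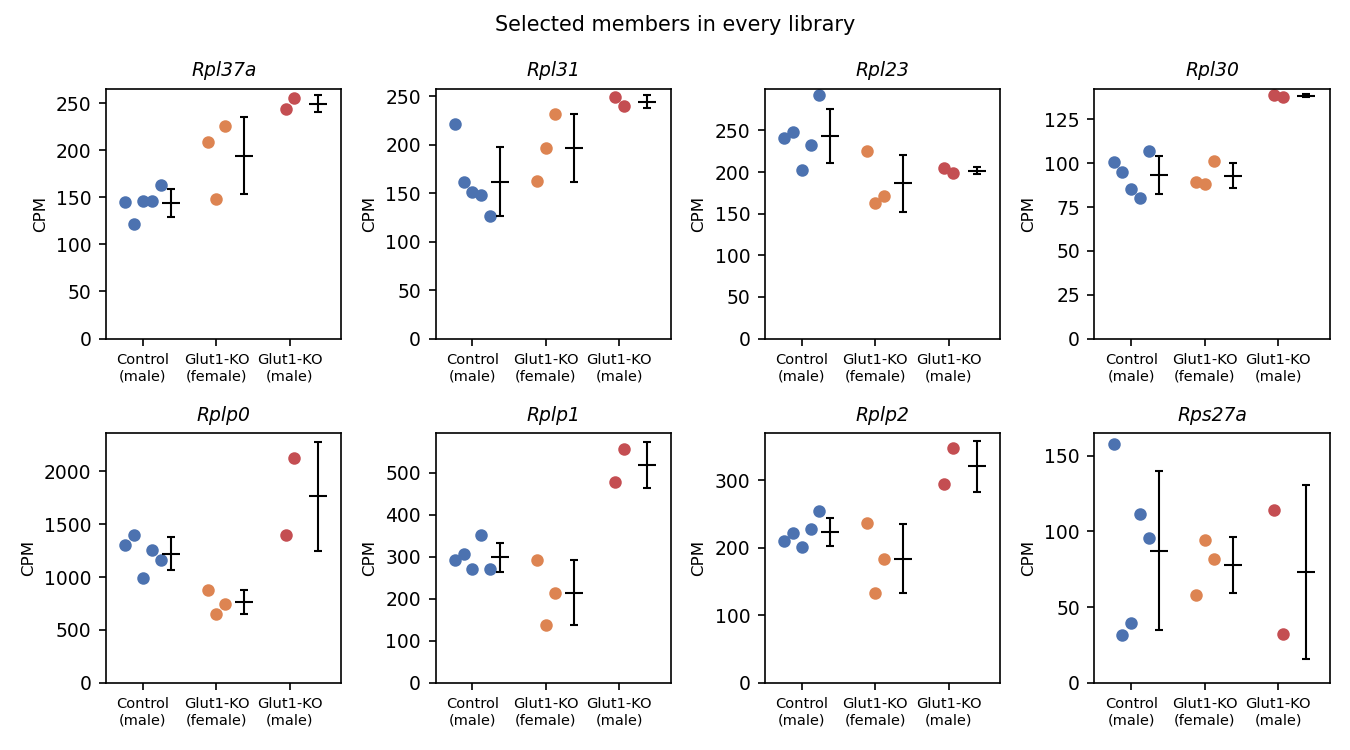
CPM (y axis, from 0) of 8 members in every library, by label and sex, with the mean ± SD beside the points. Rpl37a, Rpl31, Rpl30 and the 3 stalk genes are highest in the male Glut1-KO libraries, Rpl23 is highest in controls, and Rps27a scatters from 31.5 to 158 CPM within the controls.

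Over all tested members the median log2 fold change was 0.10, with 62 above and 18 below 0, against a median of -0.0049 over all genes. The median rested on few libraries: it was 0.05 without Glut1-KO replicate 5, 0.05 without control replicate 3, 0.07 without Glut1-KO replicate 4 and 0.21 without Glut1-KO replicate 2. It was 0.13 for the 31 tested 40S members and 0.10 for the 49 tested 60S members.

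Member levels were on balance higher in the male than in the female Glut1-KO libraries, with no member called. In a fit with 3 groups by label and sex, added after the data had been seen, male Glut1-KO minus control gave a median log2 fold change of 0.38 over the members, with 74 above and 6 below 0. At an unadjusted p under 0.05, 31 members were higher (background 6.19% of all genes) and 1 lower (4.87%), and that 1 was the Zbtb11 row. None passed the adjusted threshold (lowest adjusted p = 0.175), where 0.0188% of all genes did. Female Glut1-KO minus the same controls gave a median of -0.03, with 31 above and 49 below 0, and 2 members higher (background 7.67%) and 4 lower (6.97%) at an unadjusted p under 0.05. No member was called there either (lowest adjusted p = 0.178, 0.0691% of all genes called). Both contrasts share the 5 control libraries.

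Compared directly, male minus female Glut1-KO gave a median of 0.43, with 71 above and 9 below 0. Here 31 members were higher (background 9.89%) and 1 lower (8.68%) at an unadjusted p under 0.05, and 0 of 80 were called (0.0502% of all genes), the lowest adjusted p being 0.0906 for Rplp0. Both male libraries lay above all 5 controls for 34 of 80 members, against 8.54% of all genes, and below all of them for 1 member, against 8.57%. For the female libraries these counts were 0 members (4.16%) and 1 member, Rplp0 (5.41%). Both male libraries lay above all 3 female ones for 47 members (20.3% of all genes) and below them for 2 (20.6%). Sex, the shared sample number and the level of the targeted gene all separate replicates 4 and 5 from replicates 1 to 3 and cannot be told apart. The summed levels of dissociation genes (4374 to 4912 CPM in male, 6463 to 7226 CPM in female Glut1-KO), epithelial markers (6545 to 9931 CPM and 3376 to 5057 CPM), erythroid markers (407 to 751 CPM and 189 to 232 CPM), proliferation markers (320.4 to 386 CPM and 406 to 449.8 CPM) and the sparse lymphocyte markers (6.14 to 9.42 CPM and 14.3 to 24.8 CPM) separate the same libraries, and their part in the member values was not tested.

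**Figure D4:**
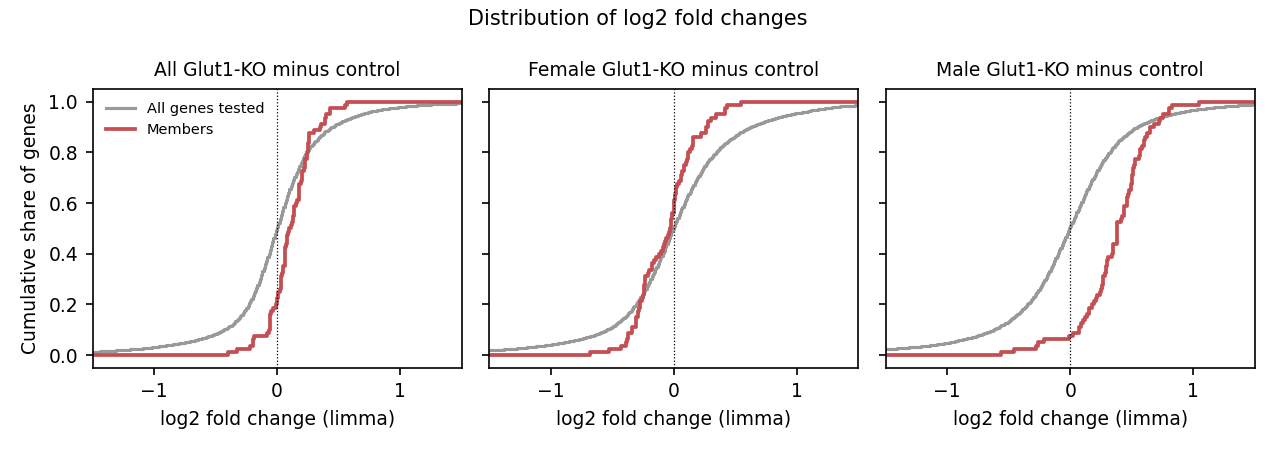
Cumulative share of genes (y axis) by limma log2 fold change (x axis) for the 80 tested members (red) and all 15922 genes tested (grey), for all, female and male Glut1-KO libraries against the controls. The member curve lies mostly right of the grey curve for the male libraries (member median 0.38) and crosses it near 0 for the female ones (member median -0.03).

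Of the role lists used here, the stalk genes had the highest median for male minus female Glut1-KO (1.19). Rplp0 forms the base of the lateral stalk of the large subunit, and Rplp1 and Rplp2 form the dimers that recruit elongation factors. Rplp0 lay at 1306, 1399, 992, 1254 and 1165 CPM in controls, at 879, 654 and 749 CPM in female Glut1-KO and at 1402 and 2129.6 CPM in male Glut1-KO. By counts on Rplp0 alone, the 3 female libraries were below every control and the 2 male ones above every control, replicate 4 only just. The log2 fold change was -0.68 (SE 0.17) for female and 0.50 (SE 0.20) for male libraries against controls, and 1.19 (SE 0.22) between them. None had an adjusted limma p under 0.05. Counted copies held 15.5% of the summed CPM of Rplp0 and its copies. The copy Gm8730 lay at 97.6, 53.6 and 54.5 CPM in female Glut1-KO, above every control, and at 15.9 and 34.4 CPM in male Glut1-KO. The copy Gm9625 lay at 241, 107 and 153 CPM and at 149 and 246 CPM, against 131 to 203 CPM in controls. Both separations of Rplp0 from the controls may thus depend on how shared reads were assigned, which was not tested.

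Rplp1 lay at 293, 306, 271, 353 and 270.1 CPM in controls, at 293, 137 and 215 CPM in female and at 479 and 556 CPM in male Glut1-KO, and Rplp2 at 211, 222, 201, 228 and 255 CPM, at 236, 133 and 183 CPM and at 294 and 347 CPM. For both, the male libraries were above all others, whereas 1 of the female Rplp1 values and 1 of the female Rplp2 values lay within the control range. Over all Glut1-KO libraries the log2 fold changes were -0.20 (SE 0.29) for Rplp0, 0.00 (SE 0.33) for Rplp1 and 0.02 (SE 0.23) for Rplp2.

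Rpl5 and Rpl11 form, with the 5S ribosomal RNA, a particle that also binds Mdm2 when ribosome assembly is disturbed, a route to p53 that the p53Fl/Fl tumour cells are expected to lack after recombination. Rpl5 lay at 325, 433, 194, 265 and 512 CPM in controls and at 230.2, 299, 282, 346 and 518 CPM in Glut1-KO, and Rpl11 at 67.5, 106, 165, 150.4 and 113 CPM and at 158, 133, 144, 189 and 118 CPM. The groups overlapped for both. Their log2 fold changes were -0.02 (SE 0.28) and 0.35 (SE 0.23), with limma adjusted p of 0.992 and 0.748. Both particle members have a coding sequence of which every 85-base stretch, the length of a read, also occurs in another gene, and summed with such copies both signs turned, to 0.0462 for Rpl5 and -0.0740 for Rpl11.

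Among the 10 members listed for the exit tunnel, 7 were above and 3 below 0 over all Glut1-KO libraries, with 1 higher (Rpl31; background 3.66%) and 1 lower (Rpl23a; 4.02%) at an unadjusted p under 0.05 and a median log2 fold change of 0.07. In male Glut1-KO against controls, 5 of these 10 were higher at an unadjusted p under 0.05 (background 6.19% of all genes) and the median was 0.36. Rpl35, whose start sequence is shown above, had the highest male log2 fold change of these 10 (1.05, SE 0.32, limma adjusted p = 0.343). It lay at 52.8, 80.2, 103, 51.8 and 53.1 CPM in controls, at 83.2, 42.7 and 70.2 CPM in female and at 123 and 149 CPM in male Glut1-KO, with only the male libraries outside the control range on the high side. The 8 tested members of the decoding site, head and mRNA path had a median of 0.01 over all Glut1-KO libraries and 0.41 in the male ones, where 2 were higher at an unadjusted p under 0.05 (6.19%). By subunit, 11 of 31 tested 40S members and 20 of 49 tested 60S members were higher in the male libraries at an unadjusted p under 0.05 (6.19%).

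Rpl30 was examined because the study normalized its real-time PCR to it. It lay at 101, 94.8, 85.5, 79.9 and 107 CPM in controls, at 89.5, 88.0 and 101 CPM in female and at 139 and 138 CPM in male Glut1-KO libraries. The female values lay within the control range and both male values above it. The log2 fold change was 0.23 (SE 0.16, limma adjusted p = 0.767; two-sided exact permutation p = 0.238 over 252 assignments). Its coefficient of variation over the 10 libraries was 20.2%, and its highest value was 1.74 times its lowest. Among 21 genes often used as references, this was in the middle: Polr2a (12.2%) and Sdha (12.4%) varied less, Rplp0 varied by 35.4% and Gapdh by 67.4%. Counted copies held 45.8% of the summed CPM of Rpl30 and its copies. With them the within-group SD of log2 CPM of Rpl30 rose from 0.26 to 0.39. Its place among these genes may thus depend on how shared reads were assigned, which was not tested. Divided by Rpl30 within each library, Slc2a1 had a log2 ratio of 0.01 ± 0.36 (SD, n = 5) in controls and -0.84 ± 0.46 (SD, n = 5) in Glut1-KO, a difference of -0.85, against -0.62 for Slc2a1 on the CPM scale. The ratio was -0.59 and -0.42 in the male libraries, and -0.57, -1.05 and -1.55 in the female ones, where the control range was -0.54 to 0.37.

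Paralogs that can replace a parent protein showed no call. Rpl22l1, an RNA-binding paralog of Rpl22, lay at 58.2, 89.6, 45.1, 55.5 and 84.5 CPM in controls and at 51.8, 70.6, 129, 95.8 and 93.7 CPM in Glut1-KO, with a log2 fold change of 0.38 (SE 0.26, limma adjusted p = 0.757). Glut1-KO 1 was among the lowest and Glut1-KO 3 the highest of all libraries. Rpl22 itself was the steadiest member at 248 to 339 CPM. Rps27l, a p53-responsive paralog of Rps27, lay at 37.5 to 47.1 CPM in controls, 31.5 to 40.1 CPM in female and 55.7 and 58.9 CPM in male Glut1-KO, and Rpl7l1 at 89.2 to 145 CPM in controls and 108 to 149 CPM in Glut1-KO. On a per-length scale the log2 ratio of Rps27l to Rps27 was 0.93 ± 0.21 (SD, n = 5) in controls and 0.57 ± 0.50 (SD, n = 5) in Glut1-KO, where replicates 2 and 3 (0.23 and -0.10) were below every control.

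The 4 X-linked members, Rpl10, Rpl36a, Rpl39 and Rps4x, were examined because sex differed between libraries. All 4 were lower in female Glut1-KO than in the male controls by the fitted value, with a median log2 fold change of -0.29, and higher in male Glut1-KO, with a median of 0.24. None had an unadjusted p under 0.05 in either contrast. Of all genes, 7.67% were higher and 6.97% lower at that threshold in the female contrast. In the male contrast the shares were 6.19% and 4.87%. In male minus female Glut1-KO all 4 were above 0, with a median of 0.4996 and 2 higher at an unadjusted p under 0.05 (background 9.89%). Rps4x lay at 682, 599, 573, 589.8 and 863 CPM in controls, at 583, 397 and 489 CPM in female and at 567 and 929 CPM in male Glut1-KO, so the male pair lay on either side of the control range. Rpl36a lay at 31.5 to 49.2 CPM in controls, at 34.6 to 39.1 CPM in female libraries, and at 81.4 and 29.6 CPM in the male ones.

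Ribosomal protein genes have many processed pseudogenes, retrotransposed copies of their mRNAs, and reads from one can be counted on the other. By alignment, 654 pseudogene rows of the count table resembled the coding sequence of a member or of Rpl24 (at least 90% identity over at least 50% of its length), only 181 of them under a -ps symbol. For 23 of 80 members with windows, every 85-base stretch of the coding sequence occurs in another gene's transcript, for 60 more than 50% do, and for 5, Rps3 and Rpl3l among them, none does. Examples are shown to make clear how little separates a member from a counted copy. The stretch of Rpl9 (chromosome 5) from base 195 to base 279, counted from the first base of the start codon, differs from its copy Rpl9-ps4 (chromosome 13) at the 1 base in capitals, C237T, the only difference in 576 coding bases.
Rpl9: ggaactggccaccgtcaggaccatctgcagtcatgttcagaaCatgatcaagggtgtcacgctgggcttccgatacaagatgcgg
Rpl9-ps4: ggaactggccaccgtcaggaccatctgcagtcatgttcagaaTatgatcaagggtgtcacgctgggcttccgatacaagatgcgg
Rps18 (chromosome 17) and Rps18-ps1 (chromosome 4) differ at 8 of 456 coding bases, 2 of which (G41A and C70T) fall in the first 85 bases.
Rps18: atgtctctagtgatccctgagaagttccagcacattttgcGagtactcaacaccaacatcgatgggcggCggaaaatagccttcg
Rps18-ps1: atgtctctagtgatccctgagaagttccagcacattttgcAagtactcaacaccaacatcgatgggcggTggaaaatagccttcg
Rpl31 and Rpl31-ps8 (chromosome 15) are identical over all 375 coding bases.

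The copies took 0.481% to 0.796% of counts per library, and some single copies varied far more than the members. The copies named here are extremes, chosen after their values were seen. Rpl9-ps4 lay at 0.405, 0.464, 0.247, 0.305 and 182 CPM in controls and at 0.341, 0.309, 0.539, 0.429 and 3.44 CPM in Glut1-KO, so that control 5 stood alone. Rpl9 showed no such excess there, with 158 CPM in control 5 and 124 to 179 CPM in the other controls. Rps18-ps1 lay at 147, 138, 27.2, 0.102 and 11.7 CPM in controls and at 10.2, 0.190, 60.8, 0.429 and 157 CPM in Glut1-KO. Rpl31-ps8 lay at 73.9, 5.64, 6.84, 5.77 and 6.29 CPM in controls and at 64.8, 55.4, 9.54, 77.2 and 62.1 CPM in Glut1-KO, a split into a low and a high set in both groups. The 95 copies with a mean of at least 10 CPM had a median within-group SD of log2 CPM of 0.52, against 0.32 for the members, and 22 of the 95 were below that median.

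**Figure D5:**
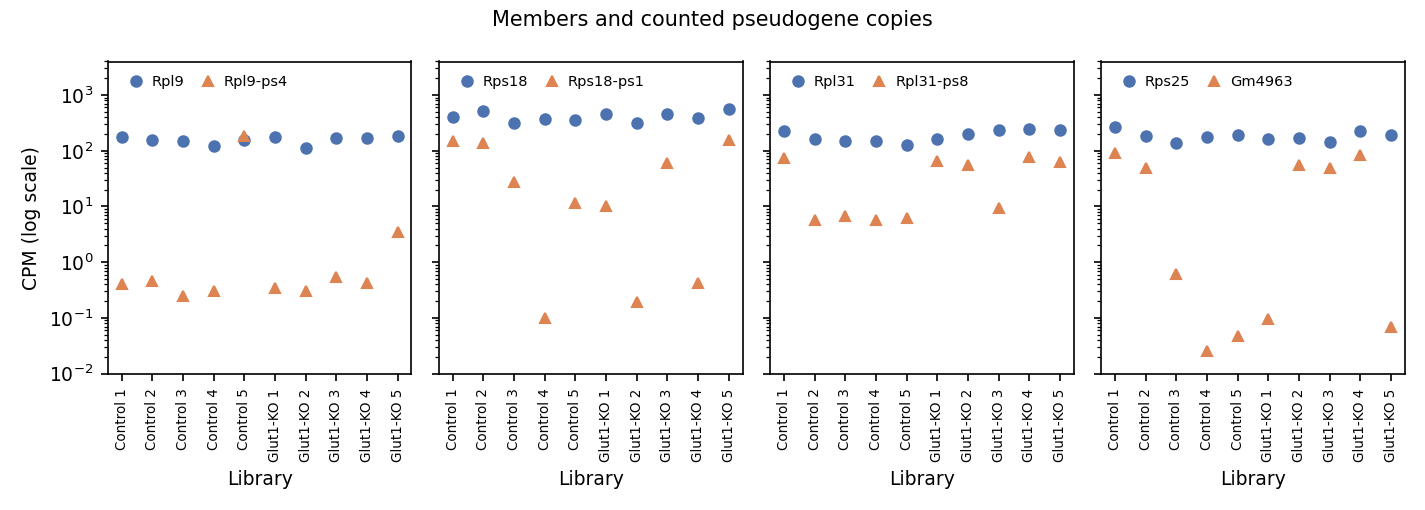
CPM on a log scale (y axis) of 4 members (circles) and of 1 counted pseudogene copy of each (triangles) in every library, with Gm4963 as a copy of Rps25. The members stay within a narrow band, and each of these copies, chosen as extremes, jumps between libraries, Rpl9-ps4 from under 0.6 to 182 CPM.

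Adding the counts of its copies to each member gave a median log2 fold change of 0.09, with 5 higher and 1 lower at an unadjusted p under 0.05 and 0 called. The shares over all genes in that fit were 3.68% higher and 3.98% lower. The SD of log2 CPM fell in 45 of the 73 members that had copies and counts in all libraries, while its median over these members was 0.325 alone and 0.335 with copies. Rpl30 had a log2 fold change of 0.47 (SE 0.23, limma adjusted p = 0.669) when summed with its copies. Members were also described by how much of their sequence is shared. Of the 12 tested members with at most 20% of 85-base stretches shared, both male libraries lay above every control for 8 (background 8.54% of all genes), and their median log2 fold change was 0.45 in male and -0.05 in female Glut1-KO. Of the 43 in between the count was 22 and the medians were 0.44 and -0.04, and of the 23 with every stretch shared the count was 3 and the medians were 0.34 and -0.01. These classes also differed in level, with a median of 938 TPM in the first, 360.2 TPM in the second and 159 TPM in the last, and the part of shared reads in the member values was not tested. Rps3, with no shared stretch, lay at 909, 881, 746, 845 and 1027 CPM in controls, at 897, 756 and 957 CPM in female and at 1279.8 and 1323 CPM in male Glut1-KO, so that both male libraries were above all others. Rpl24 by its own identifier lay at 5.98 to 28.5 CPM in controls and 11.9 to 28.0 CPM in Glut1-KO (log2 fold change 0.31, SE 0.39, limma adjusted p = 0.873), beside copies that summed to 15.1 to 72.5 CPM.

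Other parts of the translation machinery were described by the same contrasts. No gene of any of the lists below had an adjusted limma p under 0.05 over all Glut1-KO libraries. Of the ribosomal protein and related genes outside the rule, 7 were tested, and their median log2 fold change was 0.47 in male and 0.15 in female Glut1-KO against controls. The 11 tested genes of a list made up mostly of elongation factors, with a few others such as Gspt1, a release factor, and Eef1e1, a subunit of the tRNA synthetase complex, had medians of 0.37 and -0.09, and they summed to 11922 and 14442 CPM in the male libraries against 7841 to 11227 CPM in controls. The TOP mRNA list overlaps the other lists of this paragraph, sharing, among others, Eef1a1 and Eef1a2 with the elongation list, Eif4b and Eif3f with the initiation factors and Fau with the genes outside the rule, so these results are not independent. Its 24 tested genes had medians of 0.35 and -0.10, with 10 higher and 0 lower in the male libraries at an unadjusted p under 0.05 (background 6.19% and 4.87%), and the 34 initiation factors had medians of 0.13 and -0.11, with 8 higher and 1 lower in the male libraries at the same threshold (6.19% and 4.87%).

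Of the ribosome biogenesis factors, which process ribosomal RNA and assemble the subunits, 43 were tested and 0 were called in any contrast, where 0.0% to 0.0691% of all genes were. Over all Glut1-KO libraries 40 of 43 were below 0, with a median of -0.22 and 6 lower at an unadjusted p under 0.05 (background 4.02%), the smallest p belonging to Nop16, Mdn1, Mybbp1a and Utp15. Their median was 0.01 in male and -0.32 in female Glut1-KO, where 17 were lower at an unadjusted p under 0.05 (6.97% of all genes), and the summed level in the female libraries (2617 to 2653 CPM) was below that of every control (2860 to 3983 CPM). In male minus female Glut1-KO their median was 0.32, with 38 of 43 above 0 and 12 higher and 0 lower at an unadjusted p under 0.05 (background 9.89% and 8.68%). The 28 genes of RNA polymerases I and III and their factors had a median of -0.07 over all, -0.08 in male and -0.13 in female Glut1-KO, and the 29 genes of mTOR signalling and TOP control medians of -0.03, -0.0415 and -0.0427, with 1 higher and 3 lower at an unadjusted p under 0.05 over all Glut1-KO libraries (background 3.66% and 4.02%).

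Markers of other cell types and of tissue handling also differed between libraries, and their part in the member values was not tested. All 16 immediate early and heat shock genes that tissue dissociation is known to induce were detected in every library, and they summed to 7034 to 9033 CPM in controls, 6463 to 7226 CPM in female and 4374 to 4912 CPM in male Glut1-KO, so that the libraries with the most ribosomal protein counts had the least of these. Of the 16, 10 were lower in male Glut1-KO than in controls at an unadjusted p under 0.05 (background 4.87%), and 1 of these was called (0.0188% of all genes). At the same threshold 5 of 16 were lower in the female contrast (6.97%) and 7 of 16 over all Glut1-KO libraries (4.02%). The 8 epithelial markers summed to 4566 to 6863 CPM in controls, 3376 to 5057 CPM in female and 6545 to 9931 CPM in male Glut1-KO. At an unadjusted p under 0.05, 7 of 8 were higher in male than in female Glut1-KO (9.89%). In the female contrast 4 of 8 were lower at that threshold (6.97%), and in the male one 2 were higher (6.19%). The 9 markers of alveolar type II cells summed to 26989 to 74588 CPM in controls, 52706 to 68636 CPM in female and 50145 to 63361 CPM in male Glut1-KO. Their median log2 fold change was 0.48 in the female and -0.08 in the male contrast. For male minus female Glut1-KO it was -0.72, with 1 of 9 above 0. The 14 leukocyte markers were still present after CD45 depletion, at 1105 to 11511 CPM in controls, 2223 to 8080 CPM in female and 2197 to 2647 CPM in male Glut1-KO, and some lymphocyte markers among them, such as Cd3e, were at 0 in at least 1 library. Of the 12 tested, 7 were higher over all Glut1-KO libraries at an unadjusted p under 0.05 (background 3.66%), as were 7 in the female (7.67%) and 3 in the male contrast (6.19%), where 1 was lower (4.87%). The 8 endothelial markers summed to 84.8 to 334 CPM in controls, 215 to 462 CPM in female and 127 to 215 CPM in male Glut1-KO, with 7 higher in the female contrast at an unadjusted p under 0.05 (7.67%), and the 8 fibroblast markers to 126 to 459 CPM, 313 to 424 CPM and 236 to 498 CPM. The 6 club cell markers, which mark the cell type that the virus targets, summed to 1797 to 10261 CPM in controls, 2182 to 7350 CPM in female and 1186 to 4322 CPM in male Glut1-KO. The 5 erythroid markers summed to 237 to 1462 CPM in controls, 189 to 232 CPM in female and 407 to 751 CPM in male Glut1-KO, so that the female libraries were below every other one, with a median of 1.49 for male minus female. The 7 ciliated cell markers found summed to 323 to 518 CPM, 207 to 333 CPM and 266 to 321 CPM. The 8 proliferation markers summed to 365 to 678 CPM in controls, 406 to 449.8 CPM in female and 320.4 to 386 CPM in male Glut1-KO.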

How the data were processed

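RNA of 10 lung tumour fractions was sequenced. The authors prepared stranded polyA libraries, sequenced single-end reads of 85 bases, trimmed them with Cutadapt and aligned them to mm10 with HISAT2. The submitters' processing notes also list featureCounts 1.4.4 without giving its use. Handling of reads that map to several places and the annotation release are not given in the sources used here. The deposited tables hold raw counts per Ensembl gene (35.3 to 49.8 M per library, M for 1e6). A deposited log2 table was not used. Counting error is small beside the spread between libraries for well expressed members but not for those with few counts, such as Rpl3l, and p-values measure only that spread, which may be partly technical.

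Genes were kept by filterByExpr (minimum count 10, minimum total 15), leaving 15922. Counts were scaled by TMM (edgeR 4.0.16) and fitted by voom and limma 3.58.1 with group as the only term, in R 4.3.3, with Benjamini-Hochberg adjustment over all genes tested and a threshold of 0.05. DESeq2 1.42.0 and edgeR's quasi-likelihood test were alternatives. The scripts were tested on simulated data. Positions, biotypes and exon lengths came from GENCODE M21 (GRCm38), start sequences from RefSeq, copies from blastn against M21 transcripts. Library-level values were named for the 4 members with the smallest p in each direction, the 3 highest and 3 lowest per exon length, the member with the largest SD, Rpl30 and lists of members by role. The members and lists were chosen with earlier results of these data known. Single values of a few genes are not reported here.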

Additional observations from a re-analysis of the deposited data

Results flagged for a closer look

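Within groups of 5 libraries, 8 sets of values of named members and copies had 1 library farther from the others than expected of a single sample by Dixon's test at the 95% level, out of 100 groups examined, where chance alone flags about 1 in 20 of groups chosen without regard to their values. The copies named here were chosen as extremes after their values were seen. The members were chosen partly by their p or SD and with earlier results of these data known. That rate therefore applies to neither. Among members, Rpl36a in Glut1-KO replicate 4 was high (log2 CPM 6.35, 81.4 CPM), Rpl8 and Rpl13a in control replicate 3 were low (log2 CPM 9.20 and 9.02), and Rpl9 in Glut1-KO replicate 2 was low (log2 CPM 6.81). Among copies, Rpl9-ps4 was high in control replicate 5 (log2 CPM 7.51, 182 CPM) and in Glut1-KO replicate 5 (1.78, 3.44 CPM). Rpl31-ps8 was high in control replicate 1 (log2 CPM 6.21) and low in Glut1-KO replicate 3 (3.25).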

How the results depend on the processing

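The number of members called was 0 under every alternative but DESeq2, which called 1 (1.32% of all genes). In the other settings the share of all genes called was mostly 0.0% and at most 0.0691%. A count of 0 members is therefore close to the background and says little about the members. Unadjusted counts and medians moved with the libraries used, controls included. As there was no female control, the fit with sex as a covariate and the male contrast of the fit with 3 groups are the same comparison. Both, and the fit with male libraries only, rest on the same male Glut1-KO libraries and are not independent results. The 6 members at an unadjusted p under 0.05 (7.68% of all genes) became 32 with sex as a covariate (11.1%), 33 with male libraries only (9.28%), 32 for the male libraries in the fit with 3 groups, 3 with a replicate block (7.26%), 2 with counts summed by sample number (7.13%) and 1 to 9 when single libraries were left out, the lowest without Glut1-KO replicate 3 (5.56%) and the highest without Glut1-KO replicate 2 (6.4%), with 2 without control replicate 3 (6.76%) and 3 without control replicate 4 (5.69%). The median log2 fold change became 0.38 in all 3 fits that rest on the male libraries, -0.0271 for the female libraries alone and -0.0332 for them in the fit with 3 groups, and 0.05 to 0.21 when single libraries were left out, with 0.0485 without control replicate 3. Members with no overlap became 36 in male libraries only (17.1% of all genes), 1 in females (9.51%), 4 after summing by number (15.1%, above the members' share) and 0 to 2 with single libraries left out (2.39% to 4.07%), the highest without Glut1-KO replicate 2 (2.89%). The difference in the share of counts, 0.164 percentage points, became 0.605 in male and -0.129 in female libraries, and -0.00994 to 0.297 with single libraries left out, the lowest without Glut1-KO replicate 5. Same-numbered libraries correlated from -0.11 to 0.26 in their deviations, so the replicate numbers of the titles did not pair them.

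Rpl37a was called only by DESeq2 (0.59). Signs of members that were not called turned as follows, and the cause was not tested. With sex as a covariate, with male libraries only and for the male libraries in the fit with 3 groups, Rpl19 was 0.0105, 0.00955 and 0.0105, while Rpl5 was 0.37, Rplp0 0.50 and Rpl3l -0.22 in all 3. For the female libraries, alone and in the fit with 3 groups, the Rpl24 row was 0.0428 and 0.0374, Rpl32 -0.0237 and -0.0295, Rplp1 -0.53 and -0.54, Rplp2 -0.31 in both, and Rps15 -0.23 and -0.24, and Rpl30 was -0.00425 in the latter. Summed with copies, Rpl11 was -0.0740 and Rpl5 0.0462. Rpl3l was -0.34 with edgeR and DESeq2. Rplp1, near 0, was -0.0120 with library totals, -0.0102 without a filter, -0.000663 with a 20 TPM filter, -0.00348 with limma-trend, -0.0185 with the replicate block and -0.0225 with sample number as a correlated block, and Rps15 was -0.00151 with library totals.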
